A study of Mus musculus with 12 samples.

Results

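The cytosolic ribosomal protein genes encode the protein part of the ribosome outside mitochondria. They were taken from the count table of quiescent satellite cells (QSCs) as the protein-coding genes whose symbol begins with Rpl or Rps and a number, with the stalk genes Rplp0, Rplp1 and Rplp2 and with Rpsa. The rule found 82 of the 25093 genes in the table, of which 16583 are protein-coding. The large subunit had 50 members, counting the stalk, and the small subunit had 32, counting Rpsa. Another 6 symbols of the same form belong to genes annotated as pseudogenes and were not members.

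The study compared satellite cells with and without Gli3, a transcription factor of the Hedgehog pathway, by RNA sequencing of 12 samples in 4 groups. Both groups used here came from uninjured hindlimb muscle of mice aged 3 to 4 months. All of these mice carried Pax7-CreERT2/+ and R26R-YFP and were given tamoxifen. The control group had Gli3+/+ alleles and the other Gli3fl/fl alleles, so that Cre, driven from the Pax7 locus, removed exon 8 of Gli3 in satellite cells (Gli3Δ/Δ). The mice were of a mixed 129SV and C57BL/6 background, the study describes those sequenced as males, and each library pooled 2 to 3 of them. Cells were sorted as α7-INTEGRIN+ CD34+ and negative for CD31, CD45, SCA1 and CD11b. Each genotype had 3 libraries. Activated satellite cells (ASCs), taken 3 days after injury, could not be compared because their count columns matched no label.

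A ribosome holds 1 copy of nearly every one of these proteins, and cells make them in matched amounts. Most of their mRNAs begin with a C and a short run of pyrimidines, the 5′ TOP motif, which places their translation under mTORC1 and the RNA-binding protein LARP1. Quiescent stem cells are known for low protein synthesis, and mTORC1 activity rises when satellite cells become alert. Ribosomal protein mRNAs have also been copied back into the genome many times in mammals. The resulting processed pseudogenes lack introns and can differ from the parent mRNA by very few bases, so a sequencing read may fit several genes.

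The libraries held 39556784 to 65750131 estimated counts, rounded and given below as CPM, counts scaled to a common library size with TMM factors. In bulk RNA, more RNA per cell and more cells of a type cannot be told apart. The 9 myogenic markers summed to 3639 to 4398 CPM in Gli3+/+ and 3868 to 4382 CPM in Gli3Δ/Δ libraries, with Pax7 between 798 and 1157 CPM. The 8 macrophage markers summed to 11.5 to 28.9 CPM in Gli3+/+ and 10.4 to 17.7 CPM in Gli3Δ/Δ, and the 5 lymphocyte markers to at most 1.19 CPM. The fibro-adipogenic markers were higher, at 550 to 887 CPM in Gli3+/+ and 680 to 799 CPM in Gli3Δ/Δ, and these ranges overlapped. Gli3 itself was counted at 11.2, 9.71 and 9.75 CPM in Gli3+/+ and at 9.54, 10.5 and 6.25 CPM in Gli3Δ/Δ. Counts per gene do not separate exon 8, so Gli3 does not check the labels.

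The members held 4.16, 4.53 and 4.00% of all counts in the Gli3+/+ libraries. In Gli3Δ/Δ the shares were 4.33, 4.50 and 5.31%. Library 3 of Gli3Δ/Δ was the highest of the 6, while the other libraries of the genotypes overlapped. The means were 4.23% ± 0.270 and 4.71% ± 0.524 (SD, n = 3 each), a difference within the spread of the libraries (p = 0.3, exact permutation test, two-sided, where 3 against 3 cannot go below 0.1).

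Levels of different genes were set side by side per kb of coding sequence in Gli3+/+ QSCs. Rpl41, the shortest ribosomal protein, was highest at 4801 ± 194 CPM per kb (SD, n = 3). Reads come from the whole mRNA, and only 75 of the 544 bases of the Rpl41 transcript are coding, against 789 of 975 for Rps4x. The rank of Rpl41 and the ratio of the highest to the lowest level thus depend on dividing by coding length. Rps4x, the X-linked copy of the small-subunit protein eS4, followed at 2493 ± 109 CPM per kb and the stalk gene Rplp1 at 2444 ± 87.0 CPM per kb, and these values did not differ beyond their SDs. Rps14, a platform protein of the small subunit, was at 2123 ± 153 CPM per kb and Rps24 at 2115 ± 41.3 CPM per kb. Among the 80 members with at least 10 counts in every library, the median was 915 CPM per kb, and the highest level was 82.4 times the lowest. At the bottom of that order stood Rps27 at 58.3 ± 3.11 CPM per kb, Rpl5, which binds 5S rRNA, at 84.5 ± 8.15 CPM per kb, and Rpl7l1 at 147 ± 45.8 CPM per kb.

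**Figure D1:**
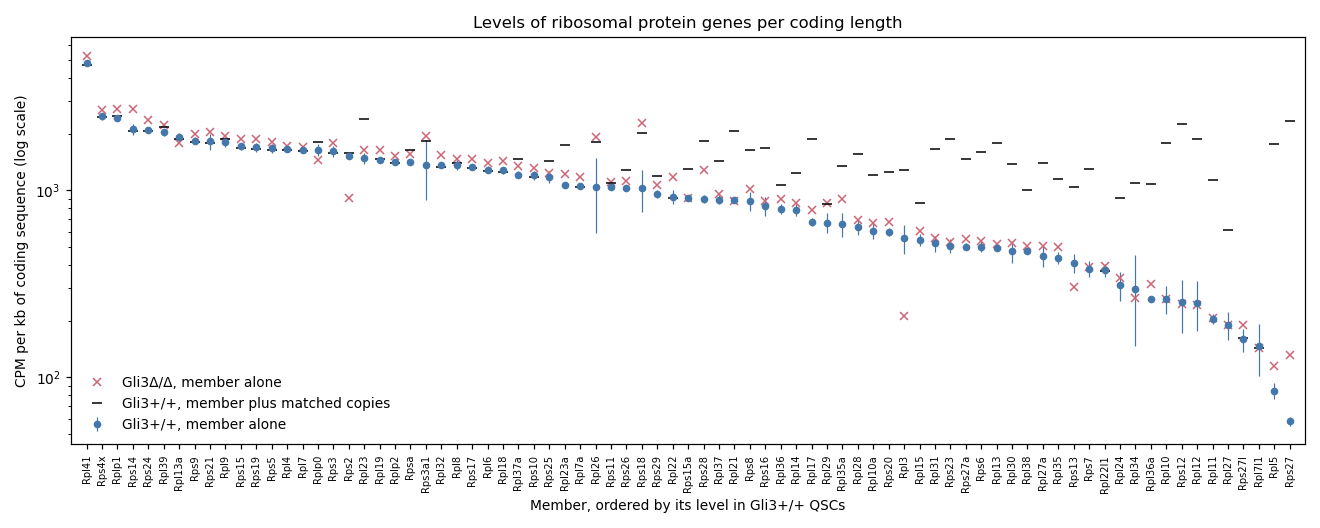
Level of 79 of the 80 members in CPM per kb of coding sequence, on a log axis, ordered by the mean of the 3 Gli3+/+ libraries (circles, bars are the SD), with the mean of the 3 Gli3Δ/Δ libraries (crosses). Dashes give the Gli3+/+ mean after the counts of matched copies were added. Most low members, Rps27 and Rpl5 among them, rise to the level of the others with their copies, while Rpl7l1, Rps27l and Rpl22l1 do not.

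The levels depended on which rows were counted, and the part of read assignment in this range was not tested. By 31-base words shared with a member's mRNA, 579 genes of the table were matched copies, and 571 of these are annotated as pseudogenes. Of the 82 members, 79 had at least 1 matched copy. In 57 members, over 90% of the 31-base words of the coding sequence also occurred in another gene. The copies held another 1.76 to 2.43% of all counts, against 4.00 to 5.31% in the members, and 30 of the 80 members had less than 50% of the joint count in their own row in Gli3+/+. With copies added, the median rose to 1526 CPM per kb and the middle part of the distribution narrowed, from quartiles of 498 and 1455 to quartiles of 1236 and 1820 CPM per kb. The highest level was still 32.7 times the lowest, a ratio that also depends on dividing by coding length.

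Rps27 held 2.15 to 2.73% of the joint count in Gli3+/+ libraries. The rest lay mainly in Rps27rt, an intronless gene whose coding sequence has no differing base, and in Gm17241. With these Rps27 reached 2345 ± 179 CPM per kb. Rpl5 held 3.92 to 5.13%, and its copy Gm15500 matches all 891 coding bases. Rps6, the protein whose phosphorylated form is stained as a readout of mTORC1, held 30.2 to 30.5%, with Rps6-ps4 as its largest copy. For these genes the coding sequence does not tell the parent and the copy apart.

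The paralogs that stayed low with copies were tissue-restricted or alternative forms. Rpl22l1, the paralog of the RNA-binding protein Rpl22, was at 370 ± 31.7 CPM per kb with copies against 905 ± 78.8 for Rpl22. Rps27l, a paralog of Rps27 induced by p53, was at 161 ± 25.5 CPM per kb. Rpl3l, the form of Rpl3 made in mature striated muscle, was at 0.323, 0.400 and 0.209 CPM in Gli3+/+ and 0.153, 0.254 and 0.216 CPM in Gli3Δ/Δ libraries. Rpl39l, a form known from testis, had 0 counts in all 6 libraries, under the limit of 3 counts that a count of 0 allows. Rpl39 itself was at 314 ± 13.3 CPM in Gli3+/+.

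In the comparison of Gli3Δ/Δ with Gli3+/+, 1 of the 82 members was called, at an adjusted p under 0.05 over all genes and a fold change of at least 1.2 (edgeR's quasi-likelihood test, Benjamini-Hochberg adjustment). Of all 25093 genes 88 were called, 0.351%, with 0.187% higher and 0.163% lower in Gli3Δ/Δ. DESeq2 called 3 members, Rpl3, Rps18 and Rps2, against 1.53% of all genes. Without adjustment 11 of the 82 members had a p under 0.05 in edgeR, and 9 of them were higher in Gli3Δ/Δ. Of all 25093 genes 1785 had such a p, and 803 of these were higher. The groups did not overlap in 17 members that were higher, beside 6.39% of all genes, and in 2 that were lower, beside 6.57%.

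Rpl3, which lines the peptidyl transferase centre of the large subunit, was counted at 549, 674 and 784 CPM in Gli3+/+. In Gli3Δ/Δ it was at 252, 237 and 285 CPM. Every Gli3Δ/Δ library lay below every Gli3+/+ library, and Rpl3 was the called member, with a log2 fold change of −1.37 (SE 0.17, adjusted p = 0.00896 from edgeR). Without library 1 or library 2 of Gli3Δ/Δ the adjusted p was 0.0589 or 0.0575 (edgeR). Over all alternatives the adjusted p of Rpl3 ran from 4.23e-11 (DESeq2) to 0.999 (with copies). The direction turned when reads counted on a pseudogene were added. Rpl3-ps1 on the X chromosome was at 957, 1001 and 789 CPM in Gli3+/+ and at 1247, 1298 and 1512 CPM in Gli3Δ/Δ, higher in every Gli3Δ/Δ library. Summed with its 6 copies, Rpl3 was at 1555 ± 83.7 CPM in Gli3+/+ and 1579 ± 159 CPM in Gli3Δ/Δ (SD, n = 3 each), a log2 fold change of 0.02 (SE 0.13, adjusted p = 0.998 from edgeR).

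The coding sequence of Rpl3 and that of Rpl3-ps1 differ at 2 of 1209 bases, and 94.7% of the 31-base words of Rpl3 also occur in Rpl3-ps1. The stretch around 1 of these bases is shown because a read within the coding sequence must cover such a base to tell the genes apart. The Rpl3 transcript has 1351 bases, and reads that reach outside the coding sequence can also tell them apart. Rpl3 lies at chr15:80077791-80091868 and Rpl3-ps1 at chrX:13202571-13203780 of GRCm38. Bases 27 to 86 of the coding sequence are printed from the start codon on, from GENCODE vM21 transcripts, with the differing base in capitals.
Rpl3: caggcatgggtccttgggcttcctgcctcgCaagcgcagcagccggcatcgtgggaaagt
Rpl3-ps1: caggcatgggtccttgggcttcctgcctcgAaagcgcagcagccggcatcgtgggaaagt

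Rps18, a protein of the small-subunit head that served as a reference gene in the RT-qPCR of the study, moved the other way. It was at 555, 332 and 514 CPM in Gli3+/+ and at 936, 994 and 1202 CPM in Gli3Δ/Δ, with no overlap. The log2 fold change was 1.16 (SE 0.21, adjusted p = 0.0754 from edgeR, and 5.62e-05 from DESeq2). An intronless copy annotated as protein-coding, Gm10260, was at 177, 360 and 225 CPM in Gli3+/+ and at 0.439, 1.01 and 1.46 CPM in Gli3Δ/Δ, a log2 fold change of −8.03 (SE 0.48, adjusted p = 0.000275 from edgeR). Rps18-ps3 was at 160, 287 and 193 CPM in Gli3+/+ and at 2.58, 1.40 and 3.78 CPM in Gli3Δ/Δ (log2 fold change −6.37, SE 0.41, adjusted p = 0.000384 from edgeR). Rps18 itself thus held 33.1 to 62.1% of the joint count in Gli3+/+ and 99.5 to 99.6% in Gli3Δ/Δ. The joint count was 924 ± 54.0 CPM in Gli3+/+ and 1027 ± 139 CPM in Gli3Δ/Δ (SD, n = 3 each), a log2 fold change of 0.15 (SE 0.14, adjusted p = 0.91 from edgeR).

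Over the 456 coding bases, Gm10260 (chr13:97760072-97760632) differs from Rps18 (chr17:33951999-33956001) at 4 bases and Rps18-ps3 (chr8:107262793-107263248) at 3. Shown first are bases 324 to 383, which hold 2 of the bases that set Gm10260 apart, and then bases 151 to 210, which hold 1 of those of Rps18-ps3. Capitals mark the bases that differ within each pair.
Rps18: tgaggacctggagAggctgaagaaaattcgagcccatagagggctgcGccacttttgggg
Gm10260: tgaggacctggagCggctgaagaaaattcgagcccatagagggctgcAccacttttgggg
Rps18: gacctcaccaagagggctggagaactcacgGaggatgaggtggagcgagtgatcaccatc
Rps18-ps3: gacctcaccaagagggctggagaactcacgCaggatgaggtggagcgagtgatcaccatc

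Rps13, which binds 18S rRNA, had a copy that was near 0 in Gli3+/+. The member was at 167, 181 and 209 CPM in Gli3+/+ and at 117, 87.7 and 207 CPM in Gli3Δ/Δ, with overlap (log2 fold change −0.44, SE 0.28, adjusted p = 0.855 from edgeR). Rps13-ps1 (chr8:87047689-87048226) was at 1.51, 0.0889 and 1.04 CPM in Gli3+/+. In Gli3Δ/Δ it was at 175, 241 and 60.01 CPM, a log2 fold change of 7.58 (SE 0.87, adjusted p = 0.00742 from edgeR). Among the Gli3Δ/Δ libraries, the one with the least Rps13-ps1, library 3, had the most Rps13. The rise of Rps13-ps1 was larger than the fall of Rps13, so these rows did not offset each other. Rps13 has 4 matched copies, and its log2 fold change with all of them is given under sensitivity. Rps13 lies at chr7:116331505-116334195, and bases 390 to 449 of the coding sequence hold both differing bases of 453.
Rps13: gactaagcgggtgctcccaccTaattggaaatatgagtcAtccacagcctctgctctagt
Rps13-ps1: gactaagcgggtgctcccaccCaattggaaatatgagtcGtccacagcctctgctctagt

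Rps28, a small protein at the mRNA exit of the small subunit, was at 193, 177 and 191 CPM in Gli3+/+ and at 231, 251 and 316 CPM in Gli3Δ/Δ (log2 fold change 0.51, SE 0.15, adjusted p = 0.413 from edgeR). Gm10263 (chr13:73317844-73318143), which differs from Rps28 (chr17:33819027-33824562) at 1 of 207 coding bases, was at 27.2, 74.7 and 48.5 CPM in Gli3+/+ and at 0.134, 0.119 and 0.256 CPM in Gli3Δ/Δ (adjusted p = 0.000275 from edgeR). The pair is shown over bases 133 to 192, which hold that single base in capitals.
Rps28: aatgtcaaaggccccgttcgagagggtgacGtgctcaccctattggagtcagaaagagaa
Gm10263: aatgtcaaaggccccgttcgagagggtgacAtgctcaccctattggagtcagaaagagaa

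Rpl26, a p53 mRNA-binding protein of the large subunit, was at 232, 597 and 530 CPM in Gli3+/+ and at 795, 691 and 1019 CPM in Gli3Δ/Δ (log2 fold change 0.88, SE 0.32, adjusted p = 0.571 from edgeR). Its copy Gm15772 was at 552, 244 and 267 CPM in Gli3+/+ and at 3.11, 149 and 5.41 CPM in Gli3Δ/Δ. Library by library, the member was low where the copy was high: library 1 of Gli3+/+ had the least Rpl26 and the most Gm15772. Summed with its copies, Rpl26 had a log2 fold change of 0.14 (SE 0.14, adjusted p = 0.919 from edgeR).

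**Figure D2:**
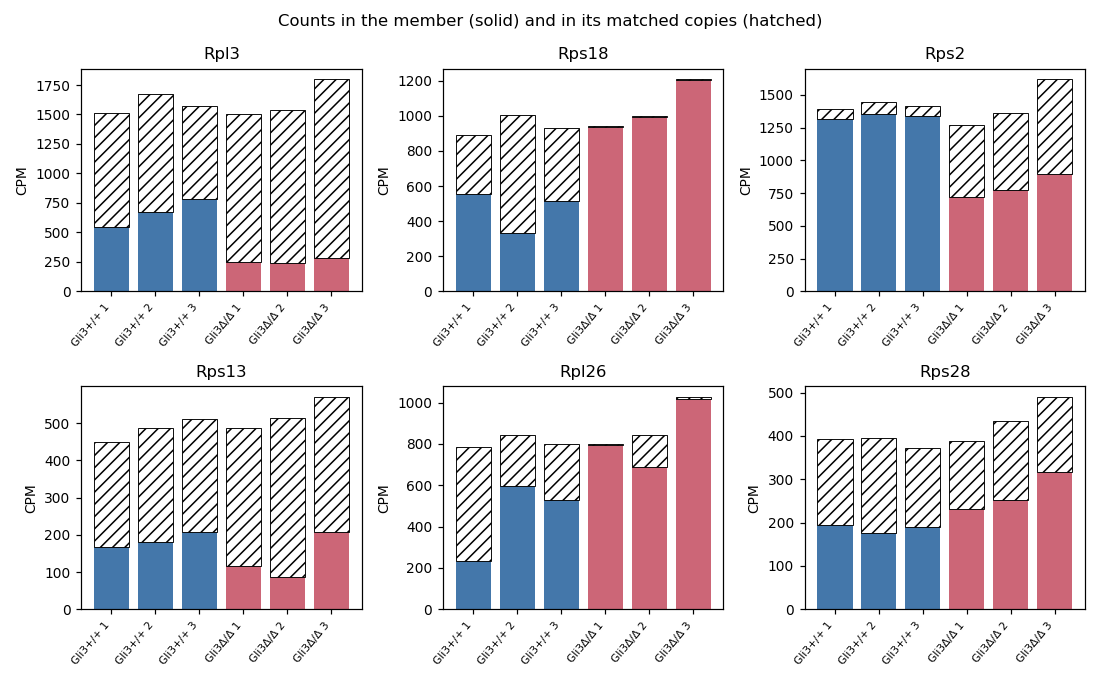
Counts of 6 members (solid bars, CPM) and of their matched copies (hatched, stacked on top) in each of the 6 QSC libraries, blue for Gli3+/+ and red for Gli3Δ/Δ, from an axis that starts at 0. The members were chosen after their values were seen. The solid part changes between the genotypes while the whole bar changes less, as for Rps18, which held 33.1 to 62.1% of its bar in Gli3+/+ and 99.5 to 99.6% in Gli3Δ/Δ.

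Rps2, which lies at the mRNA entry of the small subunit, was at 1313, 1356 and 1338 CPM in Gli3+/+ and at 718, 770 and 898 CPM in Gli3Δ/Δ, with no overlap. The log2 fold change was −0.75 (SE 0.14, adjusted p = 0.0789 from edgeR, and 0.00011 from DESeq2). Rps2-ps10 was at 57.0, 64.9 and 57.5 CPM in Gli3+/+ and at 532, 562 and 683 CPM in Gli3Δ/Δ (log2 fold change 3.31, SE 0.16, adjusted p = 9.76e-05 from edgeR). The fall of the member and the rise of the copy were of like size, and the joint count was 1387 ± 27.2 CPM in Gli3+/+ and 1388 ± 176 CPM in Gli3Δ/Δ (SD, n = 3 each).

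Rps3a1 was split unevenly within Gli3+/+ itself. It was at 690, 1106 and 1451 CPM there, while Rps3a2 was at 481, 263 and 6.98 CPM and Rps3a3 at 321, 144 and 0.905 CPM. The copies were high in libraries 1 and 2 of Gli3+/+ and low in its library 3 and in every Gli3Δ/Δ library, where Rps3a2 was between 6.98 and 11.4 CPM. Rps3a1 had a log2 fold change of 0.52 (SE 0.25, adjusted p = 0.732 from edgeR), and with copies it was 0.07 (SE 0.13). The joint count in Gli3+/+ was 1462 ± 25.8 CPM (SD, n = 3).

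Among the stalk proteins, which recruit translation factors, Rplp0 was at 1536, 1456 and 1686 CPM in Gli3+/+ and at 1353, 1300 and 1487 CPM in Gli3Δ/Δ. Its log2 fold change was −0.18 alone and 0.16 with copies (SE 0.13 each, adjusted p = 0.888 and 0.896 from edgeR). The copy Gm8730 was called, at 111, 189 and 115 CPM in Gli3+/+ and 331, 365 and 477 CPM in Gli3Δ/Δ (adjusted p = 0.0437 from edgeR). Rplp1 and Rplp2 had log2 fold changes of 0.16 (SE 0.13) and 0.10 (SE 0.14). Of the Rplp1 copies, Gm10073 and Gm11942 were called as lower in Gli3Δ/Δ, the former at 26.5, 31.4 and 25.1 CPM against 1.51, 1.45 and 1.34 CPM. Rpsa, which doubles as a laminin receptor, was at 1261 ± 34.3 CPM in Gli3+/+ and 1377 ± 161 CPM in Gli3Δ/Δ.

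In all, 8 of the 579 copies were called, 1.38%, beside 0.351% of all genes. They made up 8 of the 88 called genes of the table. Of these copies 3 were higher and 5 lower in Gli3Δ/Δ. Each of them lies in a family of 1 of 6 members: Rps2, Rps13, Rps18, Rps28, Rplp0 and Rplp1. In 13 of the 80 members, the share of the joint count that fell in the member's own row did not overlap between the genotypes. This share exists only for members, so the count has no background over all genes and is a description. For 1 member, 3 against 3 libraries without overlap reach a p of 0.1 at best (exact permutation test, two-sided).

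When every member was summed with its copies, 0 members were called by edgeR, beside 0.347% of all genes called in the same fit. Without adjustment 2 of the 82 members had a p under 0.05 in edgeR, beside 1777 of all 25093 genes. The sum was chosen after the data were seen, and no other tool was run on it. The log2 fold changes of the 80 members with at least 10 counts ranged from −1.37 to 1.18 alone and from −0.11 to 0.37 with copies. Their SD over members fell by this step, from 0.303 to 0.0661 on the log2 scale. The number of members with a log2 fold change above 0.3 in size went from 13 to 2.

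**Figure D3:**
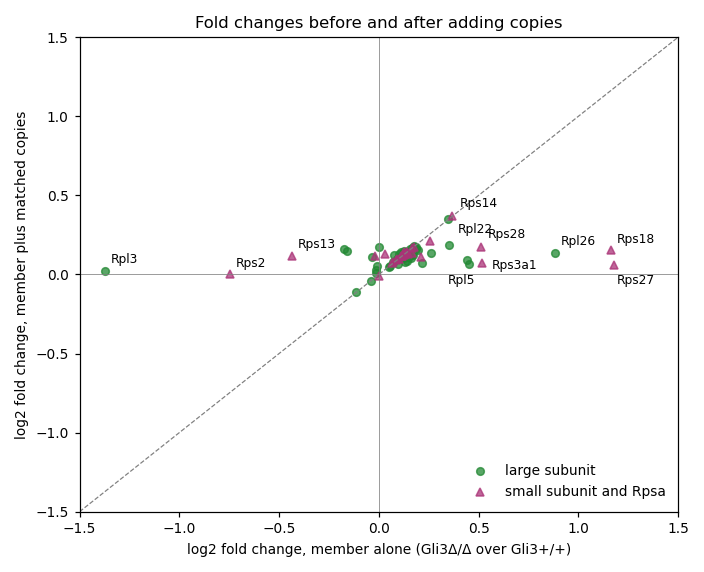
Log2 fold change of Gli3Δ/Δ over Gli3+/+ QSCs for 80 members alone (horizontal axis) and summed with matched copies (vertical axis), circles for the large and triangles for the small subunit, with the dashed line where both are equal. Rpl3, Rps2, Rps18, Rps27 and Rpl26 lie far from 0 horizontally and near the other members vertically, and Rps14 and Rpl22 stay on the line.

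The 2 members left past 0.3 were Rps14 and Rpl22, which have next to no counts in copies. Rps14 was at 923, 1041 and 920 CPM in Gli3+/+ and at 1120, 1105 and 1495 CPM in Gli3Δ/Δ (log2 fold change 0.37, SE 0.16, adjusted p = 0.686 from edgeR). Rpl22 was at 381, 364 and 320 CPM in Gli3+/+ and at 395, 444 and 516 CPM in Gli3Δ/Δ (log2 fold change 0.35, SE 0.15, adjusted p = 0.68 from edgeR). In both genes the lowest Gli3Δ/Δ library lay just above the highest Gli3+/+ library. Rps6 had a log2 fold change of 0.10 (SE 0.13, adjusted p = 0.937 from edgeR), at 348, 398 and 374 CPM in Gli3+/+ and 385, 371 and 444 CPM in Gli3Δ/Δ. Rpl13a, known for silencing inflammatory mRNAs when released from the ribosome, had the lowest log2 fold change of the 80 members after summing, at −0.11 (SE 0.13, adjusted p = 0.925 from edgeR).

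Rps27 had the largest rise in its own row, at 14.4, 14.1 and 15.6 CPM in Gli3+/+ and 30.2, 12.4 and 57.2 CPM in Gli3Δ/Δ (log2 fold change 1.18, SE 0.44, adjusted p = 0.598 from edgeR). Its lowest library was a Gli3Δ/Δ library, so the groups overlapped, and with copies the log2 fold change was 0.06. Among the paralogs, Rps27l was at 40.7, 34.2 and 45.7 CPM in Gli3+/+ and at 48.6, 47.3 and 48.2 CPM in Gli3Δ/Δ, with no overlap (log2 fold change 0.26, SE 0.14, adjusted p = 0.808 from edgeR). Rpl22l1 was at 129, 132 and 150 CPM in Gli3+/+ and at 147, 141 and 142 CPM in Gli3Δ/Δ, with overlap. Rpl7l1, a paralog of Rpl7 found in ribosome precursors, was at 93.3, 84.7 and 147 CPM in Gli3+/+ and at 103, 104 and 109 CPM in Gli3Δ/Δ, with its highest value in library 3 of Gli3+/+.

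The 4 X-linked members were Rpl10, Rpl36a, Rpl39 and Rps4x. Rpl36a was at 82.2, 86.3 and 82.6 CPM in Gli3+/+ and at 95.5, 95.9 and 110 CPM in Gli3Δ/Δ, with no overlap (log2 fold change 0.26, SE 0.12, adjusted p = 0.732 from edgeR). Rps4x was at 1903, 2064 and 1934 CPM in Gli3+/+ and at 1989, 1958 and 2454 CPM in Gli3Δ/Δ, with overlap and its highest value in library 3 of Gli3Δ/Δ. Rpl10, which joins the large subunit last, held 12.4 to 16.7% of its joint count in Gli3+/+, and its log2 fold change was −0.01 alone and 0.01 with copies. Of the 17 members that were higher with no overlap, 8 stayed so with copies: Rpl7a, Rpl22, Rpl23a, Rpl32, Rpl41, Rps14, Rps24 and Rps27l. With copies, 13 members were higher with no overlap, beside 6.34% of all genes, and 0 were lower, beside 6.58%.

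The members as a whole sat slightly higher in Gli3Δ/Δ. Of the 82, 67 had a positive log2 fold change alone and 77 with copies, with medians of 0.13 and 0.12. Over all genes the median was −0.03 and 45.0% were positive. The large and the small subunit had like medians, 0.13 in both. Short mRNAs shared part of this: among 796 other protein-coding genes with transcripts under 1000 bases and at least 10 counts in every library, the median was 0.11, and it was −0.08 among 2462 such genes of 5000 bases or more. With a correction for length the members' median was 0.18, that of the other genes under 1000 bases 0.16 and that of all genes 0.03, so the correction did not remove the difference between short and long genes.

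This shift rested largely on 1 library. The median deviation of the members from each gene's mean over the 6 libraries was −0.11, −0.02 and −0.05 in Gli3+/+ on the log2 scale. In Gli3Δ/Δ it was −0.04, −0.00 and 0.24. Library 3 of Gli3Δ/Δ was the highest library for 64 of the 80 members alone and for 76 with copies. Without it the members' median was 0.03 both alone and with copies, with 54 and 59 of 82 members positive. Over all genes the median was then −0.03 with 45.1% positive, and it was 0.06 among the 796 other genes under 1000 bases. Leaving out any other library gave medians between 0.10 and 0.19 for the members alone. Over the libraries, the difference of these medians between the genotypes lay within their spread (p = 0.2, exact permutation test, two-sided, smallest possible 0.1).

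**Figure D4:**
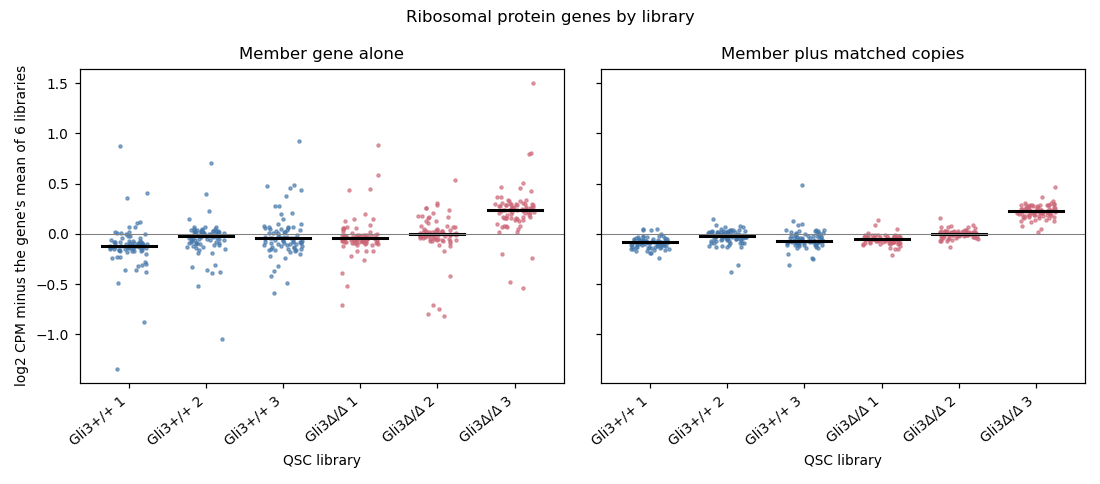
Log2 CPM of each of 80 members minus that gene's mean over the 6 QSC libraries (points), by library, for members alone (left) and with matched copies (right). Black bars are medians over the members, and points are spread sideways only to be seen. Library 3 of Gli3Δ/Δ stands above the rest, and adding copies narrows the scatter in every library.

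The same library had the lowest count of Gli3, at 6.25 CPM, and the lowest macrophage sum, at 10.4 CPM. Its myofiber markers summed to 71.9 CPM, against 45.2 to 60.9 CPM in the other libraries. Of the genes induced by enzymatic dissociation, the 7 immediate early genes summed to 27155 CPM there, the lowest of the 6 libraries, against 29221 to 36030 CPM in the others. The 2 heat shock genes of the same list, Hspa1a and Hspa1b, summed to 18092 CPM there, within the range of 9042 to 22254 CPM. Mitochondrially encoded genes held 4.29% of its counts, within the range of 3.49 to 4.33%. The part of these measures in the shift was not tested.

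Genes that work with the ribosomal proteins were compared over the same libraries, by lists chosen with earlier results of these data known. Fau, which is made as a ubiquitin-like fusion to a ribosomal protein, and Rack1, a scaffold on the small subunit, had log2 fold changes of 0.00 and 0.15 (SE 0.14 and 0.13). Library 3 of Gli3Δ/Δ was the highest for both. Of 18 translation factors and other genes with 5′ TOP mRNAs, 11 were higher and 7 lower, with a median of 0.05, which was −0.04 without library 3 of Gli3Δ/Δ. Eef1a1, the elongation factor that delivers tRNA, was at 10003, 10644 and 10176 CPM in Gli3+/+ and at 10205, 10258 and 11814 CPM in Gli3Δ/Δ. Library 3 of Gli3Δ/Δ was again the highest for 11 of the 18. By edgeR 0 of these genes were called, 0 had an unadjusted p under 0.05, and DESeq2 and limma-voom called 0.

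Factors that assemble ribosomes went another way, and a different library decided it. Of 44 ribosome biogenesis genes, 37 were lower in Gli3Δ/Δ, with a median of −0.14. Library 3 of Gli3+/+ was the highest for 42 of them, with a median deviation of 0.70 on the log2 scale, against −0.26 and −0.34 in the other Gli3+/+ libraries and −0.07, −0.01 and 0.02 in Gli3Δ/Δ. Without that library all 44 were higher in Gli3Δ/Δ, with a median of 0.28. Of the 44, 0 were called by edgeR, DESeq2 or limma-voom, with 0 at an unadjusted p under 0.05 in edgeR. Without that library edgeR called 0 of them, with 19 at an unadjusted p under 0.05. The library was singled out after its values in these genes were seen, and the count over all genes at that p is not given. The 19 are thus not set against a background.

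Nolc1, a nucleolar chaperone, illustrates the pattern. It was at 73.9, 65.2 and 218 CPM in Gli3+/+ and at 89.97, 89.7 and 81.7 CPM in Gli3Δ/Δ. Ddx21, an RNA helicase of rRNA processing, was at 166, 149 and 592 CPM in Gli3+/+ and at 260, 221 and 219 CPM in Gli3Δ/Δ. The 11 genes of RNA polymerase I and its factors behaved alike, with 8 lower (median −0.03) and all 11 higher without library 3 of Gli3+/+ (median 0.13). The median deviation of the ribosomal proteins in that library was −0.05, and without it 73 of 82 were higher, with a median of 0.14.

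Of 11 genes that link mTORC1 to 5′ TOP mRNAs, 0 were called by edgeR and limma-voom and 1 by DESeq2, with 1 at an unadjusted p under 0.05 in edgeR. That gene was Deptor, an inhibitory subunit of mTOR complexes. It was at 391, 380 and 602 CPM in Gli3+/+ and at 114, 216 and 153 CPM in Gli3Δ/Δ, lower in every Gli3Δ/Δ library. The log2 fold change was −1.51 (SE 0.27, adjusted p = 0.0744 from edgeR, and 9.69e-06 from DESeq2). Mtor itself was at 75.5, 79.0 and 83.1 CPM in Gli3+/+ and at 83.8, 80.7 and 82.5 CPM in Gli3Δ/Δ. Larp1 was at 177, 170 and 283 CPM in Gli3+/+ and at 164, 196 and 180 CPM in Gli3Δ/Δ, again highest in library 3 of Gli3+/+. The median of the 11 was −0.05, with 6 lower, and without that library it was 0.09, with 8 higher.

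The start of a few members is shown for the pyrimidine run that marks a 5′ TOP mRNA. RefSeq starts on GRCm38.p6 were matched for 62 of the 82 members, under 80%, so shares of motifs over all members would be void and are not given. Each line holds 15 bases before and 15 from the annotated start on, with the longest run of C and T of at least 6 bases that touches positions −5 to +5 in capitals. The lines are Rps18 (chr17:33955651-33955680, minus strand), Rps6 (chr4:86857353-86857382, minus), Rpl13a (chr7:45128731-45128760, minus), Rplp2 (chr7:141447636-141447665, plus), Rps24 (chr14:24490663-24490692, plus) and Rpl41 (chr10:128549154-128549183, minus), named members of the large and the small subunit.
Rps18: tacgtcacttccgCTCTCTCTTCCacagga
Rps6: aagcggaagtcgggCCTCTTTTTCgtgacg
Rpl13a: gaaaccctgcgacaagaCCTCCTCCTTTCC
Rplp2: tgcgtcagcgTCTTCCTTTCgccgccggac
Rps24: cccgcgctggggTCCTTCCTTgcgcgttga
Rpl41: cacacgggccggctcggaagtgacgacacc

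The run crosses the annotated start in Rps18, Rps6, Rplp2 and Rps24, while in Rpl13a it begins 2 bases after the first annotated base. In Rpl41 no run of that length lies there, which says only that these letters are not at this annotated start. The lines shown are not typical of the members. Of the 62 matched members 32 had no such run, among them Rpl5, Rpl22, Rplp0, Rps4x and Rpsa. The other 30 had one, beside 5405 of 26963 other genes, 20.0%. This count covers the matched members only and is not a share over all members.

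The authors also deposited 1 mean per gene over all their libraries, ASCs included, normalized by size factors. By that mean the members held 4.34% of the signal, within the range of the QSC libraries. A member's share of the members' pooled signal was set against the same share in the 6 QSC libraries, as a description with no test. The share of Rps27l was 2.75 times that in QSCs, at 0.272% against 0.0780 to 0.113%. The share of Rpl41 was 1.77 times as large, at 1.498% against 0.784 to 0.909%. Both lay outside the range of the QSC libraries, whereas Rps2 at 3.37% against 1.68 to 3.21% lay just above its wide range. Rps4x had a lower share in the mean, 3.84% against 4.43 to 4.71%. Rpl39l, at 0 in every QSC library, had a mean of 4.10 normalized counts, which must come from ASC libraries.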

How the data were processed

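The authors assigned reads to GRCm38 transcripts (GENCODE vM19) with salmon, summed them to genes, removed genes with few reads, and deposited estimated counts without normalization. Of the values, 49.2% were not whole numbers, and 96.1% among the members. Counts were rounded. The 6 QSC columns were used, and 6 ASC columns that match no label were not. The 4 deposited comparison tables hold the authors' fold changes and p-values, which were not used, and a mean signal per gene. This deposited signal is identical in all 4 tables, so the planned comparison of QSC and ASC means was replaced by that with the QSC libraries.

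Genes were tested with edgeR 4.0.16 in R 4.3.3 (TMM, quasi-likelihood, Benjamini-Hochberg, no further filter), with DESeq2 1.42.0 and limma 3.58.1 (voom) as alternatives, among others given under sensitivity. The tests were checked on counts simulated for this comparison, with 200 of 25093 genes changed. False calls among the unaltered genes numbered 24 with edgeR, 60 with DESeq2 and 6 with limma-voom, while 48%, 62% and 32% of the genes altered 2-fold were found. The counts came from a single draw with dispersions estimated by edgeR, a setting that may favour edgeR. In this check DESeq2 made more false calls than edgeR, whose calls were not free of them. Calls made by DESeq2 alone are to be read with care. A matched copy is a pseudogene or intronless protein-coding gene with at least 20% of its 31-base words in a member's mRNA (GENCODE vM21, same build, with 96.3% of identifiers unchanged). The copies were chosen after the data were seen, and copies kept their own rows when summed into members, which enlarges the library size and lowers joint CPM slightly. Levels per kb used coding length in place of the planned transcript length. Salmon divides reads that fit several genes by estimated abundance, so the values of a member and a near-identical copy are uncertain. Where the labels do not say that libraries come from separate animals, p-values measure the spread between libraries, and no interval covers more than counting error.

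Members and lists were chosen with earlier results of these data known. For that reason the plan set no test for the members' share of counts or their median. The exact permutation tests of these depart from the plan and are descriptions. Named were called members, the 5 largest rises and falls at a mean of at least 10 CPM, the 5 highest and 5 lowest levels per kb, Rps18, Rps6, paralogs, stalk genes and Rpsa, and the 5 largest shifts in pooled share in each direction. The text gives those of them that show a result, and the copies and genes of other lists were chosen after their values were seen. Some named genes are not reported here.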

Additional observations from a re-analysis of the deposited data

How the results depend on the processing

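edgeR called 1 member and 88 genes. DESeq2 called 3 members and 384 genes, limma-voom 2 members, and a minimum of 10 counts in every library left 48 genes called. Summing with pseudogenes named after the member, with copies matched by sequence, or with copies sharing at least 50% of their 31-base words left 0 members called. Leaving out 1 library gave 0 to 1 members and 58 to 103 genes called, the lowest without library 3 of Gli3Δ/Δ. The members' median log2 fold change was 0.12 to 0.18 under the other alternatives and 0.03 to 0.19 on leaving out 1 library. The share of counts was 0.483 percentage points higher in Gli3Δ/Δ, and 0.185 to 0.676 on leaving out 1 library.

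Some named members changed sign. With copies matched by sequence the log2 fold changes were 0.0227 for Rpl3, 0.000956 for Rps2, 0.15 for Rpl34, 0.12 for Rps13, 0.16 for Rplp0 and 0.0105 for Rpl10. At 50% shared words they were 0.0227 for Rpl3, 0.15 for Rpl34, 0.12 for Rps13, 0.0673 for Rplp0 and 0.0105 for Rpl10, and with named pseudogenes 0.0227 for Rpl3, 0.15 for Rpl34 and 0.12 for Rps13. Rpl10 was at 0.0734 in limma-voom and 0.0263 with length correction, and Rpl7l1 at 0.14 and 0.0373. On leaving out 1 library, Rpl10 ranged from −0.157 to 0.135, Rpl34 from −0.841 to 0.310 and Rpl7l1 from −0.183 to 0.243. Rpl38 ranged from −0.0618 to 0.196, Rpl7 from −0.0509 to 0.110 and Rplp2 from −0.0192 to 0.165, each negative only without library 3 of Gli3Δ/Δ. The cause was not tested.

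Same-numbered libraries of the genotypes did not deviate together (correlations of −0.15, −0.07 and −0.03). Between libraries of different numbers the correlations ran from −0.13 to 0.21. These values do not show whether the samples were paired. With the replicate number as a block, 1 member and 79 genes were called, the members' median was 0.12, 69 members were higher, and Rpl7l1 was at 0.00223.

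Depth does not limit most members, whose counts are high. The assignment of reads between near-identical genes was not repeated here, and its part in the results was not tested. Only 3 libraries a genotype were compared. Of these, 1 library carries most of the members' shift and another decides the direction of the ribosome biogenesis genes.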
